A study of Mus musculus with 6 samples.

Results

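The 10 genes described here belong to the cartilage, bone and tendon lineages and were followed across 6 single-colour arrays of MEFs, cultured mouse embryonic fibroblasts. They are Sox9, Sox5, Sox6, Acan, Comp, Runx2, Sp7, Scx, Tnmd and Cthrc1, chosen by name, and all probes that the array files assign to them were taken. That gave 10 of 22328 named genes and 14 of 55681 probes. All cultures were of the ICR strain in DMEM with 10% FBS. The 6 groups were Per2m/m MEFs transfected with an H-Ras and SV40T expressing vector, mock Per2m/m MEFs, vector-transfected Clk/Clk MEFs, which carry a mutant Clock, mock Clk/Clk MEFs, vector-transfected wild type MEFs and mock wild type MEFs. The signalling GTPase H-Ras is oncogenic when locked in its active state, the SV40 T antigen (SV40T) inactivates the tumour suppressors p53 and RB, and Per2 and Clock encode parts of the circadian clock. Each group was 1 array, so no group had replicates, and nothing in the labels says how many embryos or clones a culture came from.

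Cartilage, bone and tendon arise from mesenchymal progenitors, and a small set of transcription factors marks each path. SOX9, with SOX5 and SOX6, drives cartilage cells and turns on the matrix genes Col2a1 and Acan. RUNX2 and, downstream of it, SP7 (osterix) direct osteoblasts, and scleraxis (Scx) marks tendon progenitors, in which tenomodulin (Tnmd) is a late membrane protein. Comp encodes a matrix glycoprotein of cartilage and tendon, and Cthrc1 a secreted protein with a short collagen repeat that was found in injured arteries and is made by osteoblasts and activated fibroblasts.

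A level is the processed spot signal divided by the 75th percentile of its array, on a log2 scale, and a probe called dim was not well above its local background by the scanner software. A difference is the level on one array minus that on another, and a response is the transfected minus the mock array of 1 genotype. Where the dimmer array of a pair was dim, only a bound is printed (at least N-fold). It runs from the brighter level to the lowest level that counted as well above background on the dim array, or to the dim probe's own level if higher. Probes differ in how brightly they hybridise, so levels are compared between arrays for 1 probe and not between genes. In bulk RNA, fewer cells of a type and less RNA per cell cannot be told apart.

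Transfected Per2m/m cells gave the array least like the others. Across the 16718 named genes kept, its median correlation with the other arrays was 0.854, against medians of 0.931 to 0.945 for those arrays, and 49.3% of its spots were well above background, against 53.5% to 57.2%. The source name of that sample, unlike those of the other transfected samples, does not name SV40. The Y-linked gene Ddx3y was dim on it and lay at -0.05 on the mock Per2m/m array, which is at least 23.3-fold lower on the transfected array. Xist, the transcript of the inactive X, was dim on it and lay at -0.53 on the mock Per2m/m array. These sex-linked genes differed far less between the transfected and mock arrays of the other genotypes, where Ddx3y was at 1.97 and 2.40 with Clk/Clk and at 1.10 and 1.40 with wild type. Xist was dim on both Clk/Clk arrays and at -0.95 and -1.02 on the transfected and mock wild type arrays. Whether both Per2m/m arrays hold cells of the same culture was not tested, and this touches every Per2m/m response below. The transfected and mock levels of Per2 were -2.82 and -0.97 for Per2m/m, -3.88 and -3.91 for Clk/Clk, and -2.38 and -3.36 for wild type, so its probe does not single out the mutant. Clock lay between -0.30 and 0.79 on all arrays. Mouse Hras was at 3.16 and 4.49 on the transfected and mock Per2m/m arrays, 3.86 and 3.23 for Clk/Clk, and 4.01 and 4.17 for wild type, so it was higher on the transfected array with Clk/Clk alone. Whether its probe reads the H-Ras of the vector is not stated.

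Of the 13 fibroblast markers kept, 12 or 13 were well above background on every array, and Col1a1 ranged from 6.27 to 7.87. Thy1, a fibroblast surface protein, was at -0.65 and 7.11 on the transfected and mock Per2m/m arrays and between 3.53 and 7.78 on the others. Of the 17 macrophage markers, 9 were well above background on the transfected and 17 on the mock Per2m/m array, 9 on each Clk/Clk array, and 9 and 15 on the transfected and mock wild type arrays. Tyrobp, a myeloid signalling adaptor, was dim on all arrays but the mock Per2m/m array (0.21) and the mock wild type array (-1.59). The part of such cell type differences in the results below was not tested.

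The probe sequences carry part of the result, because they decide what each spot reads. Sox5 is represented by a purine repeat, and Runx2 by 3 probes spread along the gene. Below, bases 1 to 30 are shown for each Sox5 probe, and for the Runx2 probe at the start codon all 60 bases are shown, with the ATG in capitals.

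Sox5 A_55_P2156905: ggaggaggaggaagaggaggaggaggaaga

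Sox5 A_51_P500318: ttacaagcaaaaacgtcatcaagaagaaga

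Sox5 A_55_P2088765: ctgggcccatgggcaaattcaatcagatgc

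Runx2 A_52_P55876: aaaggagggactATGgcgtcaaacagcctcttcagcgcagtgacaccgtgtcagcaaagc

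Runx2 A_52_P460545: gcagcacgctattaaatccaaatttgccta

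Runx2 A_65_P18181: tgattgtttttctcatttatacctacattt

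**Figure D1:**
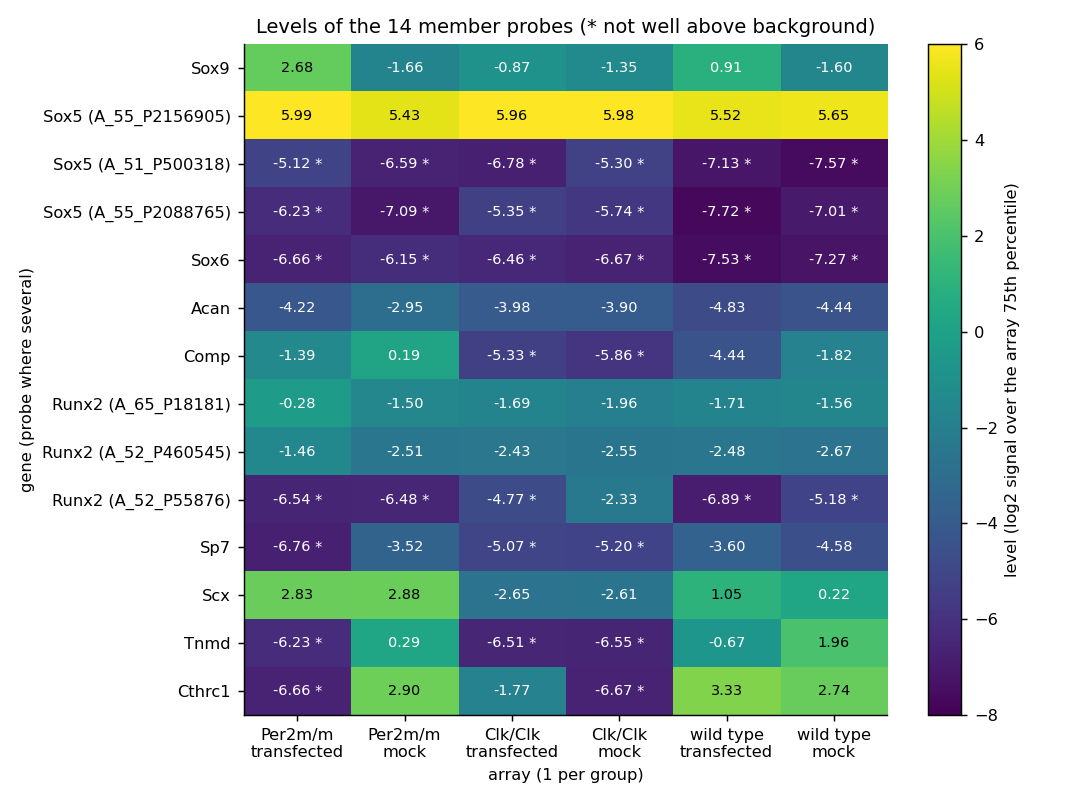
Level of each of the 14 probes on the 6 arrays, in log2 over the array's 75th percentile, with an asterisk where the probe was dim. Sox5 A_55_P2156905 is bright everywhere, while Tnmd, Cthrc1, Comp and Scx change most between arrays.

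Sox9, the master factor of cartilage, was higher on the transfected array in Per2m/m and wild type cells and hardly moved in Clk/Clk cells. Its probe (A_52_P214630, chr11:112648809-112648868 on mm9, plus strand, base 3883 of its transcript) was spotted 10 times. Sox9 was at 2.68 on the transfected and -1.66 on the mock Per2m/m array. It was at -0.87 and -1.35 on the transfected and mock Clk/Clk arrays, and at 0.91 and -1.60 on the transfected and mock wild type arrays. The 3 mock arrays lie close together, and the transfected arrays are ordered Per2m/m, wild type, Clk/Clk. The responses were 4.33 (20.2-fold higher) in Per2m/m, 0.48 (1.39-fold higher) in Clk/Clk and 2.51 (5.71-fold higher) in wild type cells. SDs of the spots kept were 0.04 to 0.10 on each array (10 spots, but 8 on the transfected Clk/Clk array after outliers were left out), so the differences exceed spot noise, which is not the spread between cultures. In limma's additive fit over all 6 arrays, Sox9 was 2.44 ± 0.84 higher in transfected cells (SE), with an unadjusted p of 0.0467 and an adjusted p of 0.6915. It therefore did not pass the threshold of 0.05, and no member or other gene did in this fit.

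**Figure D2:**
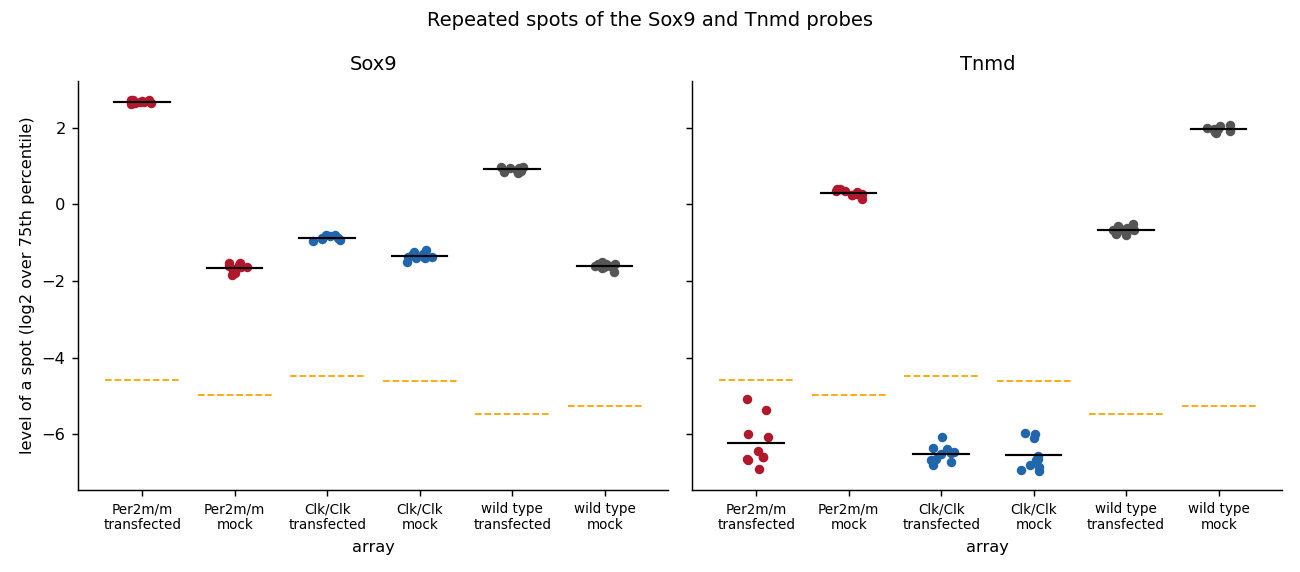
Level of each repeated spot of the Sox9 and Tnmd probes on each array (points, 10 per array but 8 for Sox9 on the transfected Clk/Clk array) and their mean (black line), in log2 over the 75th percentile. The dashed line is the lowest level at which any probe counted as well above background, and the Tnmd spots lie below it on the transfected Per2m/m and both Clk/Clk arrays.

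Sox5, the long SOXD partner of SOX9, gave a measured level only on its repeat probe. A_55_P2156905 (chr6:143776945-143776971 on mm9, minus strand, which spans 27 bases of the genome) read 5.99 and 5.43 on the transfected and mock Per2m/m arrays. It read 5.96 and 5.98 on the Clk/Clk arrays and 5.52 and 5.65 on the wild type arrays, each transfected first. All 60 of its bases are A or G. Of the 23 probes on the array made only of A and G, 23 (100%) were well above background on all arrays, with a median mean level of 4.77, against 42.8% of all probes and a median mean level of -4.38. The other Sox5 probes, A_51_P500318 and A_55_P2088765, were dim on all 6 arrays. The responses of the repeat probe were 0.56, -0.02 and -0.14 in Per2m/m, Clk/Clk and wild type cells, none of them 2-fold. Sox6, the other SOXD gene, was dim on all 6 arrays on its single probe (A_52_P475356, chr7:122615418-122615477, minus strand), with levels from -7.53 to -6.15, and was not kept.

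Acan, which encodes the large proteoglycan aggrecan, was low but well above background throughout, and it was over 2-fold lower on the transfected array in Per2m/m cells. Its probe (A_51_P462271, chr7:86259741-86259801, plus strand) read -4.22 and -2.95 on the transfected and mock Per2m/m arrays. It read -3.98 and -3.90 on the transfected and mock Clk/Clk arrays, and -4.83 and -4.44 on the transfected and mock wild type arrays. The mock Per2m/m array is the highest of the 6, and the other arrays lie between -4.83 and -3.90. The responses were -1.28 (2.42-fold lower), -0.08 and -0.39 in Per2m/m, Clk/Clk and wild type cells. The Per2m/m response of Acan was -0.996 with array median scaling and -0.30 with normexp background correction, both under 2-fold.

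Comp, a pentameric matrix protein that binds collagens, was lower on the transfected array in Per2m/m and wild type cells and dim in Clk/Clk cells. Its probe is shown because its span on the genome is longer than its 60 bases, so that it reads spliced RNA.

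Comp A_51_P409010: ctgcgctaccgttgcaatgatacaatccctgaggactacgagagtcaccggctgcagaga

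The probe spans 134 bases at chr8:72905692-72905825 (mm9, plus strand). Comp was at -1.39 and 0.19 on the transfected and mock Per2m/m arrays and at -4.44 and -1.82 on the transfected and mock wild type arrays. It was dim on both Clk/Clk arrays. The responses were -1.58 (2.99-fold lower) in Per2m/m and -2.62 (6.16-fold lower) in wild type cells, and no fold is given in Clk/Clk cells. limma put Comp at -1.22 ± 0.71 (SE) for transfected minus mock, with an adjusted p of 0.6915.

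Runx2, the factor that commits cells to the osteoblast path, was over 2-fold higher on the transfected array in Per2m/m cells on 2 of its 3 probes. On A_65_P18181 (chr17:44633034-44633093, minus strand, base 2660 of its transcript) it read -0.28 and -1.50 on the transfected and mock Per2m/m arrays. It read -1.69 and -1.96 on the Clk/Clk arrays and -1.71 and -1.56 on the wild type arrays, each transfected first. The transfected Per2m/m array stands above the other 5, which lie between -1.96 and -1.50. The responses were 1.22 (2.33-fold higher), 0.27 and -0.15. The probe A_52_P460545 (chr17:44744925-44744984, base 1830) gave responses of 1.05 (2.07-fold higher), 0.12 and 0.19 in the same order of Per2m/m, Clk/Clk and wild type. With the mean of all kept probes the Per2m/m response of Runx2 was 0.74, under 2-fold. With normexp background correction it was under 2-fold too.

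The third Runx2 probe behaved differently. A_52_P55876 (chr17:44951128-44951187, minus strand, base 362) lies over the start codon printed above, which is that of the isoform made from the distal promoter in mouse. It was well above background on the mock Clk/Clk array alone, at -2.33, and dim on the other 5 arrays. That is at least 4.39-fold lower on the transfected than on the mock Clk/Clk array and at least 7.22-fold higher on the mock Clk/Clk than on the mock wild type array. The probes nearer the end of the gene differed by 0.40 or less between those mock arrays. RefSeq's promoter table (GRCm38.p6) held 10 start sites of 5 of the 10 genes (Acan, Runx2, Sox5, Sox6 and Tnmd). Sox6 has 6 of these start sites and each other gene 1. The 250 bases before the Runx2 start (chr17:44814628-44814877, minus strand) are given because Runx2 is the member with probes at both ends, with the RUNX hexamer in capitals.

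Runx2 upstream: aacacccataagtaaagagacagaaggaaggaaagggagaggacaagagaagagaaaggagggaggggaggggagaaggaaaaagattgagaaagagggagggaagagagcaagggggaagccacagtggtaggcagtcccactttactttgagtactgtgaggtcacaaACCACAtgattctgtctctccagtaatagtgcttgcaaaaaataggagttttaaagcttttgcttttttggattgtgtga

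The hexamer TGTGGT, searched on both strands over 250 bases before to 50 bases after each start, was in 3 of the 10 member windows (Runx2 and Sox6) and in 16.8% of 32851 promoters. In the Runx2 window it lay at -80, 23 and 31 from the start, on the opposite strand. The letters ACAANG, a core of SOX sites, were in 7 of the 10 windows and in 41.2% of all promoters. Those 7 windows belong to Sox5, Sox6 and Tnmd, and most are Sox6 windows, so they are not separate genes. The E-box CACGTG read by CLOCK was in 0 of the 10 and in 7.15% of all. These matches describe the letters only.

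Sp7, the zinc finger factor needed after RUNX2 for osteoblasts, was faint. Its probe (A_52_P236709, chr15:102187692-102187751, minus strand) was dim on the transfected and at -3.52 on the mock Per2m/m array, dim on both Clk/Clk arrays, and at -3.60 and -4.58 on the transfected and mock wild type arrays. It was at least 2.10-fold lower on the transfected Per2m/m array and 0.98 (1.97-fold) higher on the transfected wild type array. Both values lie near the background of their arrays.

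Scx, the scleraxis factor of tendon progenitors, separated the arrays by genotype, with responses to transfection near 0 in both mutants and under 2-fold in wild type cells. Its probe (A_51_P380432, chr15:76289708-76289767, plus strand) read 2.83 and 2.88 on the transfected and mock Per2m/m arrays. It read -2.65 and -2.61 on the Clk/Clk arrays and 1.05 and 0.22 on the wild type arrays, each transfected first. Both Per2m/m arrays lie above both wild type arrays, and both Clk/Clk arrays below them. The responses were -0.06, -0.04 and 0.83 (1.77-fold higher), the last 1.14 with array median scaling. Against wild type, Scx was 2.66 (6.33-fold) higher in mock and 1.78 (3.43-fold) higher in transfected Per2m/m cells. In Clk/Clk cells it was 2.83 lower on the log2 scale (difference -2.83, 7.11-fold) in mock and 13.0-fold lower (difference -3.70) in transfected cells, where its rank was 88 from the lowest of 16718 genes. limma gave 2.22 ± 0.39 (SE) for Per2m/m minus wild type, unadjusted p 0.00551 and adjusted p 0.9327. It gave -3.27 ± 0.39 for Clk/Clk minus wild type, with unadjusted p 0.00139 and adjusted p 0.264, so neither passed. Each genotype had only a mock and a transfected array, so these p-values do not measure the spread between separate cultures of a genotype. For Per2m/m, genotype and slide row cannot be told apart either.

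Tnmd, a tendon membrane protein that tenocytes need to mature, was lower on the transfected array in Per2m/m and wild type cells and dim in Clk/Clk cells. Its probe was also spotted 10 times.

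Tnmd A_51_P108183: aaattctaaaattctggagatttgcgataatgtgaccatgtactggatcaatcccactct

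It lies at chrX:130397487-130397546 (mm9, plus strand, base 708 of its transcript). Tnmd was dim on the transfected and at 0.29 on the mock Per2m/m array, dim on both Clk/Clk arrays, and at -0.67 and 1.96 on the transfected and mock wild type arrays. The SDs of its spots were 0.06 to 0.09 where it was bright and 0.21 to 0.60 where it was dim. It was at least 29.5-fold lower in transfected Per2m/m cells and 6.16-fold lower (-2.62) in transfected wild type cells. In Clk/Clk cells it was at least 95.5-fold lower than in wild type cells under mock conditions and at least 13.9-fold lower in transfected cells. limma gave -3.04 ± 1.40 (SE) for transfected minus mock, adjusted p 0.6915, and -7.17 ± 1.72 for Clk/Clk minus wild type, adjusted p 0.4512. Both coefficients use the measured values of dim arrays, so their sizes are not bounds. Scx and Tnmd were both low in Clk/Clk cells, but on the transfected Per2m/m array a dim Tnmd came with a Scx response near 0. Other tendon genes did not all follow them in Clk/Clk cells. Of the 19 kept from the tendon list described below, 6 were at least 2-fold higher and 3 lower than wild type in transfected cells. The shares of all genes were 13.2% and 11.1%. With array median scaling 4 were higher and 6 lower (1347 and 6274 of all genes). In mock cells 4 were higher and 6 lower, against 10.1% and 10.7% of all genes. The SOX core CTTTGT lies at -213 from the RefSeq start of Tnmd.

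Cthrc1 changed most of the 10 genes and in opposite directions in the mutants. Its probe (A_52_P453785, chr15:38918358-38918417, plus strand) was dim on the transfected and at 2.90 on the mock Per2m/m array, at -1.77 on the transfected and dim on the mock Clk/Clk array, and at 3.33 and 2.74 on the transfected and mock wild type arrays. It was at least 179-fold lower in transfected Per2m/m cells, at least 7.20-fold higher in transfected Clk/Clk cells and 1.51-fold higher (0.59) in transfected wild type cells. Against wild type it was at least 164-fold lower in mock Clk/Clk cells and 34.4-fold lower (-5.10) in transfected Clk/Clk cells, rank 33 from the lowest. In Per2m/m cells it differed by 0.16 from wild type under mock conditions and was at least 242-fold lower after transfection. limma's transfected minus mock value of -1.36 ± 3.11 (SE, adjusted p 0.865) averages these opposite responses.

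**Figure D3:**
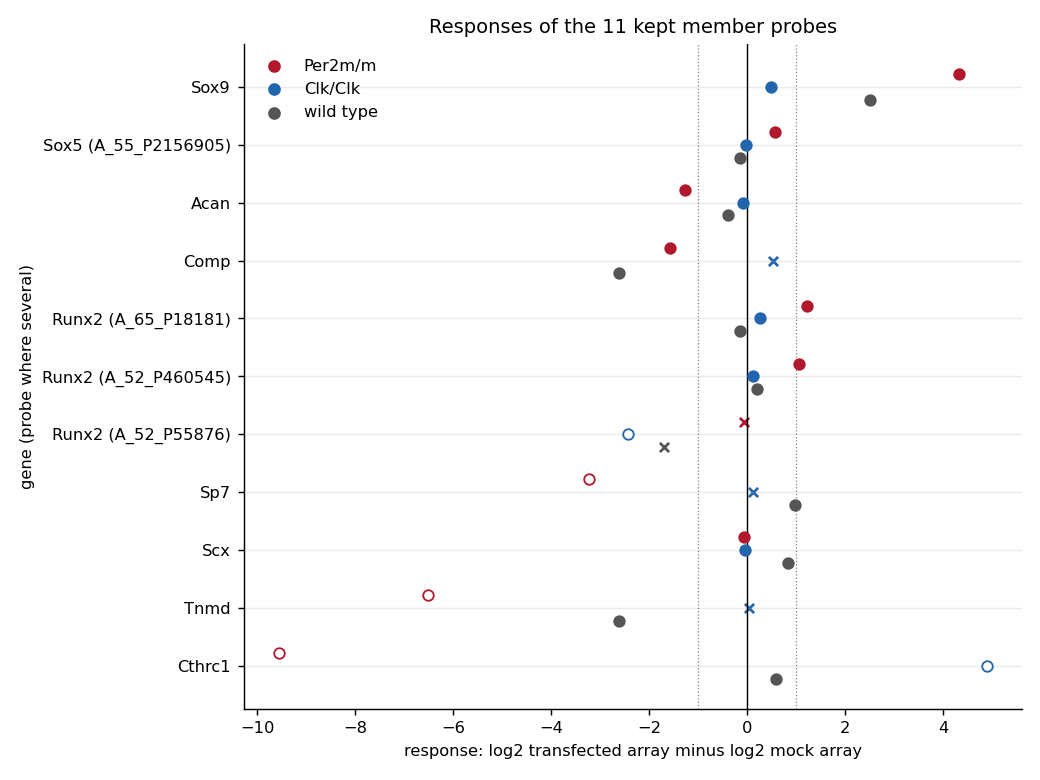
Response (log2 transfected minus mock array) of the 11 kept probes in Per2m/m, Clk/Clk and wild type cells. Filled points have both arrays well above background, and open points have the dimmer array dim. Open points sit at the measured difference and not at the bound given in the text. Crosses have both arrays dim, and the dotted lines mark 2-fold. Sox9 lies right of the line in Per2m/m and wild type cells and Tnmd left of it in both.

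Counted together, 9 genes had a kept probe, and 5 of them were well above background on all arrays. Sox5 is in both counts through its repeat probe alone, and 8 genes remained without the probes made only of A and G. A gene dim on an array could not be counted as higher there. Because of this, and because a gene bright on 1 array only passes through that array, these counts are descriptions. They use the measured difference wherever the brighter array was well above background, so some counted genes have a bound under 2-fold, as had 131 of the 3119 higher and 457 of the 3470 lower genes of the Per2m/m response. In Per2m/m cells, 2 were at least 2-fold higher (Sox9 and Runx2) and 5 lower (Acan, Comp, Sp7, Tnmd and Cthrc1), where 18.7% of all genes were at least 2-fold higher and 20.8% lower, 39.4% in either direction. The members' median response was -1.28 (-1.07 with dim genes at their bound, -0.30 with normexp background correction), against 0.12 over all genes. In Clk/Clk cells 1 was higher (Cthrc1) and 0 lower, against 3.74% and 4.12% of all genes, 7.85% in either direction, with medians of 0.13 and 0.02. Comp, Sp7 and Tnmd were dim on both Clk/Clk arrays and could not be counted in either direction. In wild type cells 1 was higher (Sox9) and 2 lower (Comp and Tnmd), against 7.51% and 11.8%, 19.3% in either direction, with medians of -0.14 and 0.00. With the array median as scale, 3 were higher and 2 lower in wild type cells, and with quantile normalization 2 and 2. Over all genes, 2416 were higher and 1417 lower with the array median, and 1243 and 1804 with quantile normalization (main 1255 and 1972). The 3 responses share no array.

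Counts against wild type are given for each mutant in turn. In mock Per2m/m cells 4 genes were at least 2-fold higher (Acan, Comp, Sp7 and Scx) and 1 lower (Tnmd), against 4.41% and 4.32% of all genes, 8.73% in either direction. Comp was 2.01 (4.03-fold) and Acan 1.49 (2.81-fold) higher there. In transfected Per2m/m cells 4 were higher (Sox9, Comp, Runx2 and Scx) and 3 lower (Sp7, Tnmd and Cthrc1), against 14.7% and 16.2% of all genes, 30.9% in either direction. For Sp7 the measured difference passed 2-fold there, but its bound is 1.99-fold. Comp, Sp7 and Tnmd were dim on both Clk/Clk arrays and Cthrc1 on the mock one, so these could not be counted higher on those arrays. In mock Clk/Clk cells 0 were higher and 4 lower (Comp, Scx, Tnmd and Cthrc1), against 10.1% and 10.7%, 20.8% in either direction. In transfected Clk/Clk cells 0 were higher and 5 lower (Sox9, Sp7, Scx, Tnmd and Cthrc1), against 13.2% and 11.1%, 24.4% in either direction. The bound for Sp7 there is 1.83-fold, so 4 of the 5 are at least 2-fold lower by their bound or by measured values. The members' median difference there was -1.48, but -0.87 with dim genes at their bound and -0.04 with normexp background correction. Comparisons with the same wild type array share it, so their values are given side by side and not set against each other.

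**Figure D4:**
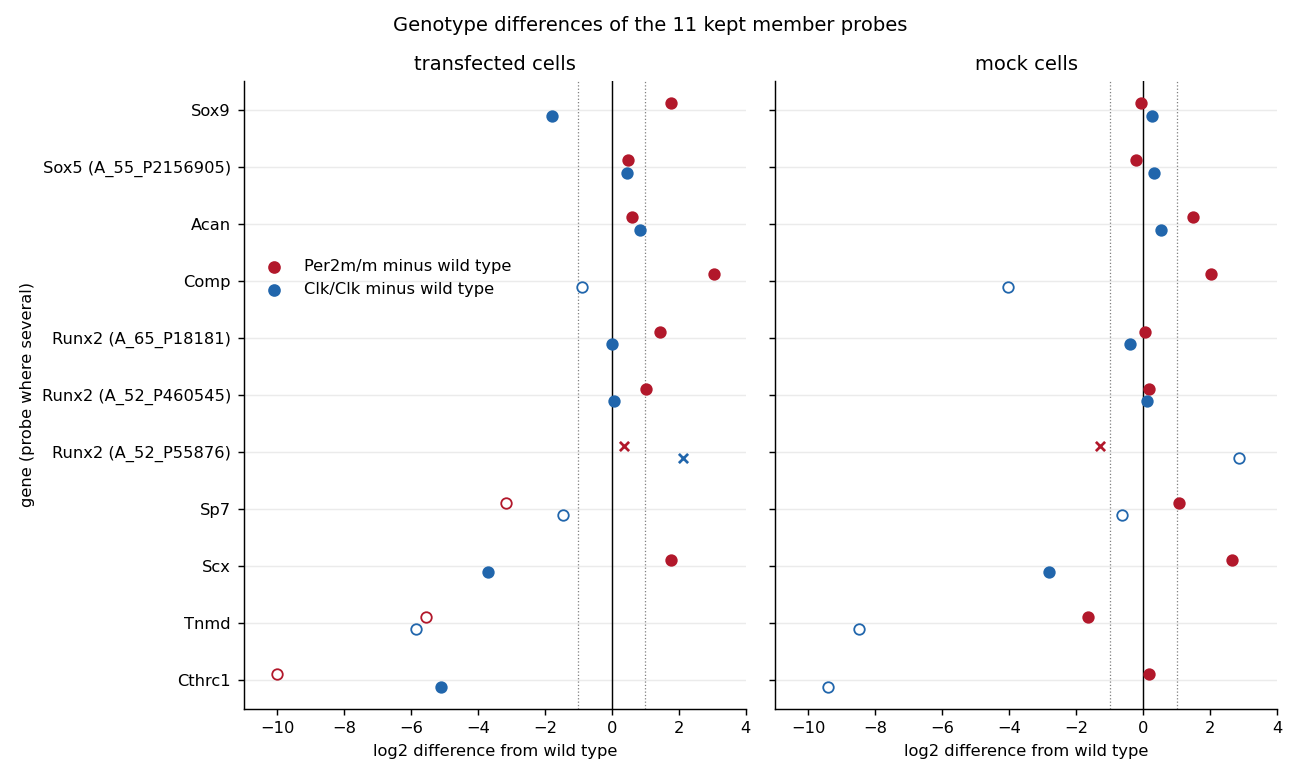
Log2 difference of Per2m/m and of Clk/Clk from wild type for the 11 kept probes, in transfected and in mock cells. Symbols are filled, open or crossed as in the plot of responses, and dotted lines mark 2-fold. Scx lies right of the line in Per2m/m and left of it in Clk/Clk cells in both states.

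In limma's fit, 0 of 16718 genes passed the adjusted threshold of 0.05 for any coefficient (0.0% called). At an unadjusted p under 0.05, transfected minus mock held 782 genes (357 higher, 425 lower), of which 1 is a member, Sox9. Per2m/m minus wild type held 369 genes, with Scx and Comp as the 2 members. Clk/Clk minus wild type held 1501 genes, with Scx and Tnmd as the 2 members. The lowest adjusted p over all genes were 0.6915, 0.9327 and 0.1693.

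Other genes of each lineage were taken from lists, and they differed in direction. At 2-fold, 18.7% of all genes were up and 20.8% down with Per2m/m, 3.74% and 4.12% with Clk/Clk, 7.51% and 11.8% with wild type. Of 19 cartilage genes kept, the Per2m/m response was at least 2-fold up in 1 and down in 10 (3 and 9 with array median scaling). With that scaling 4337 of all genes were up and 3012 down (main 3119 and 3470). The Clk/Clk response was up in 1 and down in 0 (1 and 1 with quantile normalization), and the wild type response was up in 1 and down in 4. With quantile normalization 712 of all genes were up and 783 down in the Clk/Clk response (main 625 and 688). Among the 10 cartilage genes down with Per2m/m, Hapln1 has a bound of 1.90-fold. Col2a1, the main collagen of cartilage, was dim on the transfected and at 2.10 on the mock Per2m/m array, at least 103-fold lower. It was dim on both Clk/Clk arrays and at 2.89 and 1.08 on the transfected and mock wild type arrays, 3.51-fold higher, the opposite direction to Per2m/m. Pth1r, the parathyroid hormone receptor, was at least 18.1-fold lower in Per2m/m and 13.2-fold lower (-3.72) in wild type cells after transfection. Prg4, the lubricin of joints, was at least 8.16-fold and at least 2.84-fold lower.

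Of 27 bone genes kept, the response was up in 8 and down in 9 with Per2m/m, up in 2 and down in 1 with Clk/Clk, and up in 7 and down in 2 with wild type (11 and 1 with array median scaling). Of those up, Ifitm5 has a bound of 1.93-fold with Per2m/m and 1.10-fold with wild type, and Smpd3 one of 1.95-fold with Clk/Clk. The shares of all genes up and down were 18.7% and 20.8%, 3.74% and 4.12%, and 7.51% and 11.8% in that order of genotypes. With array median scaling 2416 of all genes were up and 1417 down with wild type (main 1255 and 1972). Spp1, osteopontin, was at 5.73 and 3.78 in transfected and mock Per2m/m cells, at 2.27 and 3.78 in Clk/Clk cells, and at 4.27 and 3.02 in wild type cells. Its responses were 1.96, -1.52 and 1.25, opposite in sign in Clk/Clk cells. Alpl, alkaline phosphatase, was well above background only on the Clk/Clk arrays, at -2.70 and -3.10. Ibsp, bone sialoprotein, was well above background on the transfected Per2m/m array alone, at -3.62 and at least 2.56-fold higher. Bglap, osteocalcin, lay between -5.07, a dim value, and -3.21. Omd, osteomodulin, responded by 1.58 in Per2m/m cells and was at least 17.8-fold higher in transfected wild type cells. Tnfsf11, the osteoclast-inducing ligand RANKL, was at least 9.39-fold lower, at least 2.30-fold higher and 10.6-fold lower (-3.40) in Per2m/m, Clk/Clk and wild type cells. Pdpn, podoplanin, gave responses of -4.03, 0.44 and -1.04.

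Of 19 tendon genes kept, the response was up in 3 and down in 12 with Per2m/m, up in 2 and down in 3 with Clk/Clk, and up in 3 and down in 9 with wild type. The shares of all genes up and down were 18.7% and 20.8%, 3.74% and 4.12%, and 7.51% and 11.8% in the same order. Lum, counted down with Per2m/m, has a bound of 1.40-fold, and Myoc, counted up, has bounds of 1.49-fold with Per2m/m and 1.87-fold with wild type. With dim genes at their bound the median response of the list was -2.26 with Per2m/m and -0.97 with wild type, and with normexp background correction it was -1.29 and -0.72. Over all genes it was 0.00 at the bounds in both genotypes. Fmod, fibromodulin, was dim on the transfected and at 0.23 on the mock Per2m/m array. It read -2.76 and -3.74 for transfected and mock Clk/Clk cells and -3.83 and 1.39 on the wild type arrays. That is at least 28.2-fold lower in Per2m/m and 37.3-fold lower (-5.22) in wild type cells, and 0.98 higher in Clk/Clk cells. Tnc, tenascin C, was at least 106-fold lower in Per2m/m and 7.81-fold lower (-2.97) in wild type cells, and Thbs4 was at least 30.5-fold and at least 27.5-fold lower. Six2 was at least 28.0-fold and at least 51.4-fold lower. Mkx, the tendon factor Mohawk, moved the other way, with responses of 2.39, -1.76 and 1.97. The contractile markers moved beside these genes in Per2m/m cells, where their summed level was 5.23 on the transfected and 11.3 on the mock array, against 10.8 and 11.1 in wild type cells. The summed macrophage marker level was 4.21 and 5.88 in Per2m/m cells and 4.59 and 5.59 in wild type cells. A sum follows its brightest markers, and the median macrophage marker differed more. It was -3.30 and 0.09 in transfected and mock Per2m/m cells and -5.25 and -1.47 in wild type cells. The part of either in the tendon counts was not tested.

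**Figure D5:**
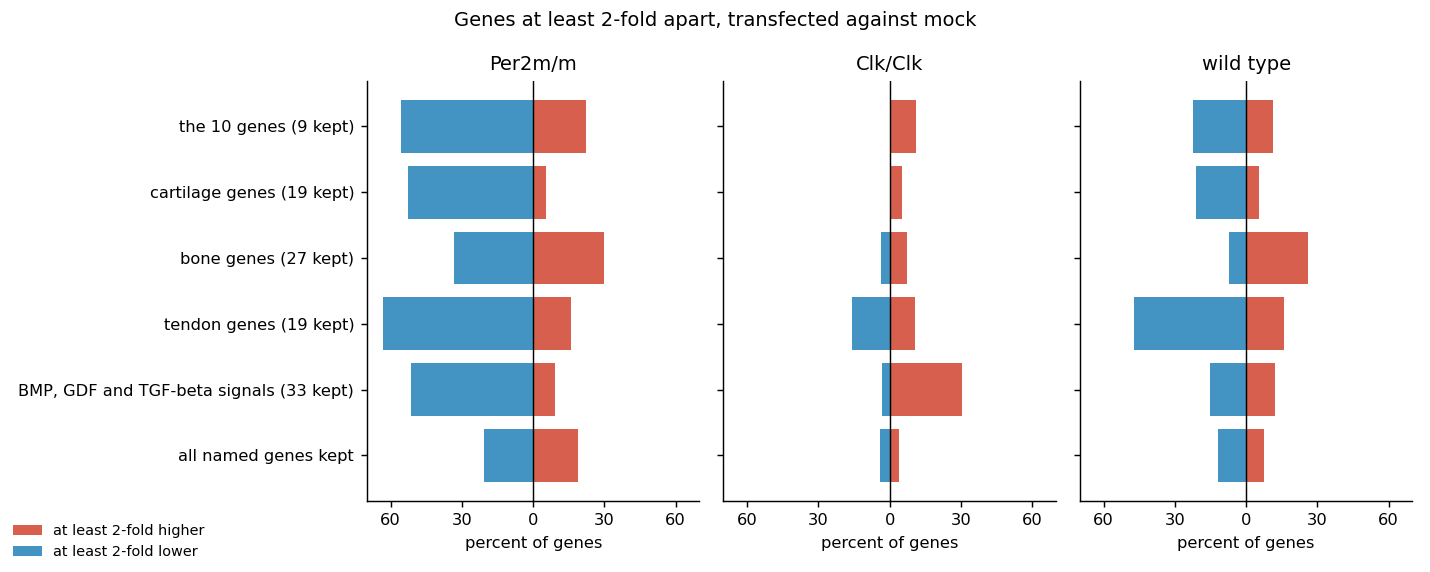
Percent of genes at least 2-fold higher (right of 0) or lower (left of 0) on the transfected array, for the 10 genes, 4 lists and all named genes kept, in Per2m/m, Clk/Clk and wild type cells. In Per2m/m cells 12 of 19 tendon genes were lower, against 20.8% of all genes.

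Signals of the BMP, GDF and TGF-beta pathway, which guide these lineages, were also counted. Of 33 kept, the response was up in 3 and down in 17 with Per2m/m, up in 10 and down in 1 with Clk/Clk, and up in 4 and down in 5 with wild type (6 and 4 with array median scaling). The shares of all genes up and down were 18.7% and 20.8%, 3.74% and 4.12%, and 7.51% and 11.8% in the same order. With array median scaling 2416 of all genes were up and 1417 down with wild type (main 1255 and 1972). Of the 17 signals down with Per2m/m, Bmp5 and Gdf6 have bounds of 1.03-fold and 1.41-fold. The Clk/Clk median was -0.16 (-0.05 at the bounds) in spite of the 10 that were up. The receptor Bmpr1b was at least 54.9-fold lower in transfected Per2m/m cells, and its log2 responses were 1.88 in Clk/Clk and -1.63 in wild type cells. Id4, a BMP target, was at least 68.3-fold lower in transfected Per2m/m cells, with log2 responses of 2.33 in Clk/Clk and -1.62 in wild type cells.

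For the members well above background on all arrays, the genes with the nearest profile over the 6 arrays were found among 12361 such genes, as the smallest Euclidean distance between levels centred on their own mean. For Sox9 these were Gcat (0.856), Tbc1d4 (1.03) and Reep6 (1.10), and for Runx2 they included Cebpg (0.133) and Ghitm (0.182). Foxc2 (1.91), Ank (2.09) and Tmem179 (2.13) lay nearest to Scx. The nearest to Acan were Itga6 (0.514), Tet3 (0.530) and C1qb (0.583), and for the Sox5 repeat probe they were Rpsa (0.125), 2610028H24Rik (0.146) and Irs3 (0.149). Profiles that vary little have small distances, so these values are not compared between members.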

How the data were processed

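Total RNA was measured on 6 single-colour Agilent arrays, 1 per group, grouped by title. The deposited scanner files give spot intensity on a linear scale, extracted with Feature Extraction 10.7.1.1 per the file headers (9.5.1.1 per the submitters' processing notes). The authors' deposited series table also holds intensity. Its columns had a median of 23.8 and an r of at least 0.998 with the log2 signal of their own array, and served as an alternative. It is linear and not centred by gene. The member counts from this table were those of quantile normalization in every comparison, so these alternatives are not separate checks. Which software made the table was not given in the sources used here.

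A total of 59305 spots per array were not controls, of which 85 to 125 outliers were left out and 0 were saturated. Spots of a probe were averaged, and scaled to the 75th percentile of the array on a log2 scale. Repeated spots had a median SD of 0.08 to 0.09 (log2), which covers spot noise only, and the number of arrays limits precision. Of 55681 probes, 27235 were named by accession, 3581 by symbol and 565 by synonym through a RefSeq gene table (GRCm38.p6), and 24300 were not analysed here. Coordinates are those of the files (mm9). A probe was kept when well above background on at least 1 array, and each gene took its kept probe of highest mean level, leaving 16718 genes.

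limma 3.58.1 in R 4.3.3 fitted transfection plus genotype (2 residual degrees of freedom, two-sided, Benjamini-Hochberg over all genes, threshold 0.05), and was tested on simulated data. P-values measure the spread between these samples, which includes genotype-specific response. Responses within a genotype have no test and are counted at a size of 2-fold where the brighter array was not dim. Both Per2m/m arrays lay in another slide row than the rest, so genotype and row cannot be told apart for Per2m/m. Named genes were the 10 members, 3 genes per list with the largest response, textbook definers of each lineage, and the 3 nearest profiles, some of which are not reported here. Members and lists were chosen with earlier results of these data known. Alternatives changed the scaling, background correction, filter, probe summary and arrays. Tables and plots were made in Python 3.11.15 (numpy 2.4.6, pandas 2.3.3, matplotlib 3.10.9).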

Additional observations from a re-analysis of the deposited data

Results flagged for a closer look

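Cthrc1 responded in opposite directions in the mutants, by -9.56 in Per2m/m cells and 4.90 in Clk/Clk cells (log2 transfected minus mock, measured values). The dimmer array of each pair was not well above background. Only bounds of at least 179-fold lower and at least 7.20-fold higher can be given. The difference between both responses was not tested, since each group had 1 array.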

How the results depend on the processing

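The limma fit holds genotype as a term and so sets each transfected array against the mock array of its genotype. No paired analysis by replicate number was possible because the labels carry none. With 1 array per group no replicate could be left out, and whole arrays were left out instead. Under every alternative run, 0 members passed limma's threshold. With normexp background correction, 4 members were at least 2-fold apart in the Per2m/m response (main 7) and 3 in mock Per2m/m against wild type cells (main 5). Calls over all genes fell as well. They were 2335 higher and 2287 lower in the Per2m/m response (main 3119 and 3470). In mock Per2m/m against wild type cells they were 282 and 198 (main 738 and 722). With the array median as scale, 5 members were apart in the wild type response (main 3). That scale shifted the median of all genes to 0.40 in Per2m/m and 0.32 in wild type responses (main 0.12 and 0.00), and relative to it 1 member was higher and 2 lower in wild type cells. Of all genes called, 59.0% were then higher in Per2m/m and 63.0% in wild type responses (main 47.3% and 38.9%), and 28.1% in mock and 17.7% in transfected Clk/Clk against wild type cells (main 48.5% and 54.3%). Restricting to probes well above background on all arrays left 5 members, of which 3, 0 and 1 were apart in the Per2m/m, Clk/Clk and wild type responses, 2 and 3 in mock and transfected Per2m/m against wild type cells, and 1 and 2 in mock and transfected Clk/Clk against wild type cells. Fewer genes tested accounts for that drop in part by construction. The share of all genes apart under this restriction is not given here. The transfected minus mock coefficient of limma turned sign for Sox5 to -0.0095 with quantile normalization, -0.0085 with the deposited series table and -0.0786 without the transfected Per2m/m array, for Runx2 to -0.17 with the mean of all kept probes (main 0.45), and without the transfected Per2m/m array for Sp7 to 0.55 (main -0.71) and for Cthrc1 to 2.74 (main -1.36). The Runx2 mean includes A_52_P55876, whose measured responses were -0.06, -2.44 and -1.71 in Per2m/m, Clk/Clk and wild type cells. The cause of these sign changes was not tested. Without the transfected Per2m/m array Sox9 was at 1.496 (adjusted p 0.934) and Tnmd at -1.29. An alternative chosen after seeing the data left out the probes made only of A and G, and Sox5 then had no kept probe. Signal near background limits Sp7, Tnmd, Cthrc1 and Comp on their dim arrays, and Acan, which was low on every array.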

Other observations

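Relatives of the factors were followed too. At 2-fold, 18.7% of all genes were up and 20.8% down with Per2m/m, 3.74% and 4.12% with Clk/Clk, 7.51% and 11.8% with wild type. Of 8 SOX family genes kept, the response was up at least 2-fold in 1 and down in 2 with Per2m/m, up in 0 and down in 2 with Clk/Clk, and up in 2 and down in 0 with wild type. Of the 2 down with Clk/Clk, Sox10 has a bound of 1.25-fold. Sox11, a factor of embryonic progenitors, was lower by at least 15.2-fold in transfected Per2m/m cells, 2.58 lower on the log2 scale (-2.58) in Clk/Clk cells and 0.06 apart in wild type cells. Sox12 responded by 2.03, 0.47 and 1.66. Sox2 was at least 2.41-fold higher in transfected wild type cells. Of 12 RUNX and SP partners kept, the response was up in 5 and down in 0 with Per2m/m (4 and 1 with quantile normalization), up in 0 and down in 1 with Clk/Clk, and up in 4 and down in 0 with wild type. With quantile normalization 2805 of all genes were up and 3514 down with Per2m/m (main 3119 and 3470). Hdac4, a deacetylase that restrains RUNX2, responded by 2.38, 0.32 and -0.43 in Per2m/m, Clk/Clk and wild type cells. Zfp521, a repressor of RUNX2 activity, responded by 1.55, -0.33 and -0.52, and Runx3 by 0.77, 0.12 and 1.77.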
